A study of Drosophila melanogaster with 12 samples.

Results

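The libraries described here compared random priming with poly(A) priming on total RNA that had not been depleted of ribosomal RNA (rRNA). They were chosen by their labels as the 3 random-primed input and the 3 poly(A)-primed input libraries, 6 of the 12 libraries of the series. Each of 3 RNA samples came from 40 whole wandering larvae (of the third instar) of the wild type strain Oregon-R of Drosophila melanogaster, kept at 25°C on cornmeal-agar medium, with no mutation or drug in any group. The other libraries were made with the same priming methods from RNA that had gone through hybridization to biotinylated antisense oligonucleotides and streptavidin capture, and they enter only where a priming difference is compared before and after depletion. Random-primed libraries were made with the NEBNext Ultra II Directional kit and poly(A)-primed libraries with the QuantSeq 3′ mRNA-Seq forward kit, so that the priming method cannot be told apart from the kit, the amount of RNA used or the number of amplification cycles.

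A poly(A) primer copies RNA that carries a run of adenosines, which most eukaryotic mRNAs gain when they are cleaved and polyadenylated. A random primer anneals anywhere, and so also copies RNAs that end in another way: transcripts of RNA polymerase III such as 7SL and 7SK, spliceosomal small nuclear RNAs (snRNAs), small nucleolar RNAs (snoRNAs) cut from introns, and the replication-dependent histone mRNAs, whose 3′ end is a stem-loop. Poly(A)-primed reads of this kit lie near the 3′ end of a transcript, whereas random-primed reads can lie anywhere along it.

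Random-primed input libraries held 16158593 to 16777734 estimated counts, of which 96.2 to 97.3% fell on rRNA, whereas poly(A)-primed input libraries held 4087436 to 6329164, of which 5.09 to 13.8% fell on rRNA. Outside rRNA and the synthetic spike-in RNAs, 428039 to 596423 counts were left in the random-primed and 3311445 to 5709119 in the poly(A)-primed libraries, and shares below are percentages of these. Levels are given as CPM, the count divided by the summed counts of the tested genes and by the library's TMM factor from edgeR, times 1e6. Of 27 markers of larval tissues, 23 had at least 10 counts in all random-primed and 24 in all poly(A)-primed libraries. The markers short of this in some library were NimC1 (blood cells), nSyb (neurons), lambdaTry and Mal-A1 (gut), so that a blood, neuronal or gut signal rested on the other markers of those tissues. In these bulk samples, more cells of a type and more RNA per cell cannot be told apart.

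Genes annotated as snRNA and snoRNA took a larger part of the random-primed libraries, and so did 7SL. Genes annotated as snRNA, which include 7SK, held 1.35, 1.24 and 2.14% of non-rRNA counts in the random-primed libraries. In the poly(A)-primed libraries they held 0.0165, 0.0193 and 0.0198%, a ratio of means of 85.2. The spliceosomal snRNAs alone held 1.06, 0.981 and 1.73% in random-primed against 0.0161, 0.0187 and 0.0191% in poly(A)-primed libraries. Genes annotated as snoRNA held 1.09, 0.940 and 1.81% in the random-primed and 0.0177, 0.0226 and 0.0257% in the poly(A)-primed libraries, a ratio of 58.2. RNA sample 3 gave the highest share of both classes in the random-primed libraries, and the groups did not overlap. Genes annotated as ncRNA, which include 7SL and long noncoding RNAs, held 11.5% ± 2.12 in random-primed against 4.64% ± 0.973 in poly(A)-primed libraries (SD, n = 3 each). That direction rested on 7SL: the ncRNA genes other than 7SL held 1.57, 1.42 and 1.95% in random-primed against 4.33, 3.85 and 5.72% in poly(A)-primed libraries, the opposite order. Of 147 tested ncRNA genes, 39 were higher and 65 lower in random-primed libraries, with a median log2 fold change of -0.79. Protein-coding genes held 84.98% ± 3.09 in random-primed and 94.98% ± 0.972 in poly(A)-primed libraries. Pseudogenes also held less in random-primed libraries, 0.0505% ± 0.00571 against 0.0850% ± 0.00424 of poly(A)-primed counts (SD, n = 3 each). For tRNA genes as a class the shares were 0.0160% ± 0.00231 against 0.0218% ± 0.00336. That class joined parts that differed in opposite directions. Nuclear tRNA genes held 0.0144% ± 0.00235 of random-primed against 0.000862% ± 0.000293 of poly(A)-primed counts, and most of their random-primed counts came from tRNA:Tyr-GTA-1-9. Mitochondrial tRNA genes held 0.00159% ± 0.000232 against 0.0210% ± 0.00358. For each of these 6 classes a two-sided exact permutation of the library labels gave p = 0.1, which is the lowest value that 3 against 3 libraries allow. The shares of the whole tRNA class nearly met, at 0.0186% in both the highest random-primed and the lowest poly(A)-primed library.

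**Figure D1:**
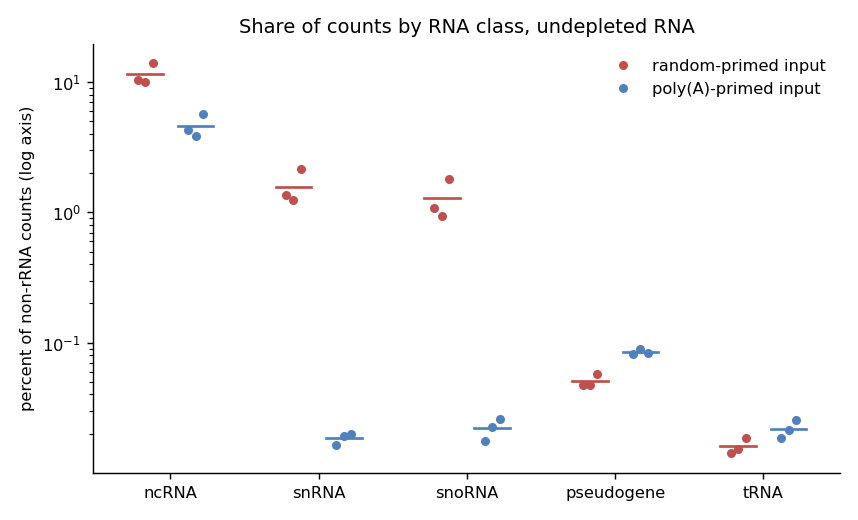
Share of non-rRNA counts (percent, log axis) held by the genes of 5 annotated RNA classes in the 3 random-primed (red, left) and the 3 poly(A)-primed (blue, right) input libraries. Points are libraries and bars are means. The snRNA and snoRNA shares of the random-primed libraries, 0.940 to 2.14%, lie far above the 0.0165 to 0.0257% of the poly(A)-primed libraries.

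Of 17668 genes outside rRNA and spike-ins, 9112 had at least 10 counts in all 3 libraries of either group and were tested. At an adjusted p under 0.05 (edgeR quasi-likelihood, Benjamini-Hochberg), 2803 (30.8%) were higher and 2977 (32.7%) lower in random-primed than in poly(A)-primed libraries. A change of at least 4-fold was called for 949 genes upwards (10.4%) and 1126 downwards (12.4%). The median log2 fold change was -0.16, and these figures depend on the scaling. Scaling to total counts moved the median up by 0.67 and scaling to the spike-ins by 1.31, with 3961 higher and 1611 lower calls under the first and 4998 and 691 under the second. A gene that reached 10 counts in only 1 of the groups entered the test through the group where it was high, so that counts and medians over lists of such genes are descriptions and no support for a direction. Directions below hold relative to the bulk of genes, and lists whose median turned under another scaling are named as such.

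The signal recognition particle RNA 7SL, which brings ribosomes making secreted proteins to the endoplasmic reticulum, had the highest level of the RNA families without a tail compared here. Its 2 copies (7SLRNA:CR32864 at 3R:6822500-6822798 and 7SLRNA:CR42652 at 3R:6820131-6820429, BDGP6, each a single exon) received equal estimated counts because the estimator splits reads between them. Summed over both, 7SL had 49156, 51743 and 51220 counts in the random-primed libraries and 126, 430 and 305 in the poly(A)-primed libraries. In CPM this was 79731 ± 17837 CPM in random-primed against 83.3 ± 41.7 CPM in poly(A)-primed libraries (SD, n = 3 each). Each copy had a log2 fold change of 9.91 ± 0.48 (SE, adjusted p = 1.29e-08). The poly(A)-primed level, 36.2, 98.1 and 116 CPM, varied more between RNA samples than the random-primed level did in proportion to its mean.

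The other named noncoding RNAs of this kind moved the same way. 7SK, which holds the elongation factor P-TEFb inactive, had 1611, 1564 and 1764 counts in random-primed libraries, against 12, 25 and 18 in poly(A)-primed libraries, a log2 fold change of 8.94 ± 0.32 (SE, adjusted p = 4.24e-11). The RNA of RNase MRP, an enzyme that cleaves the rRNA precursor, had 1625, 1620 and 1793 counts against 46, 79 and 44, a log2 fold change of 7.37 ± 0.27 (adjusted p = 4.24e-11). The groups lay far apart for each, and RNaseP:RNA, part of the enzyme that trims the 5′ end of tRNA precursors, had 401, 462 and 500 counts in the random-primed libraries, against 0, 8 and 9 in the poly(A)-primed libraries (log2 fold change 8.73 ± 0.55, adjusted p = 1.10e-06). A separate count of uniquely mapped poly(A)-primed reads over exons gave 12, 25 and 19 for 7SK, nearly the estimated values. It gave 4, 4 and 5 for the 7SL copies, against estimates of 126, 430 and 305. A read that fits both 7SL copies is not unique, so this is no check of the 7SL estimates. Of 6 abundant noncoding RNAs with at least 50 estimated counts in all poly(A)-primed libraries, 3 had a unique-read count below 0.1 of the estimate.

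**Figure D2:**
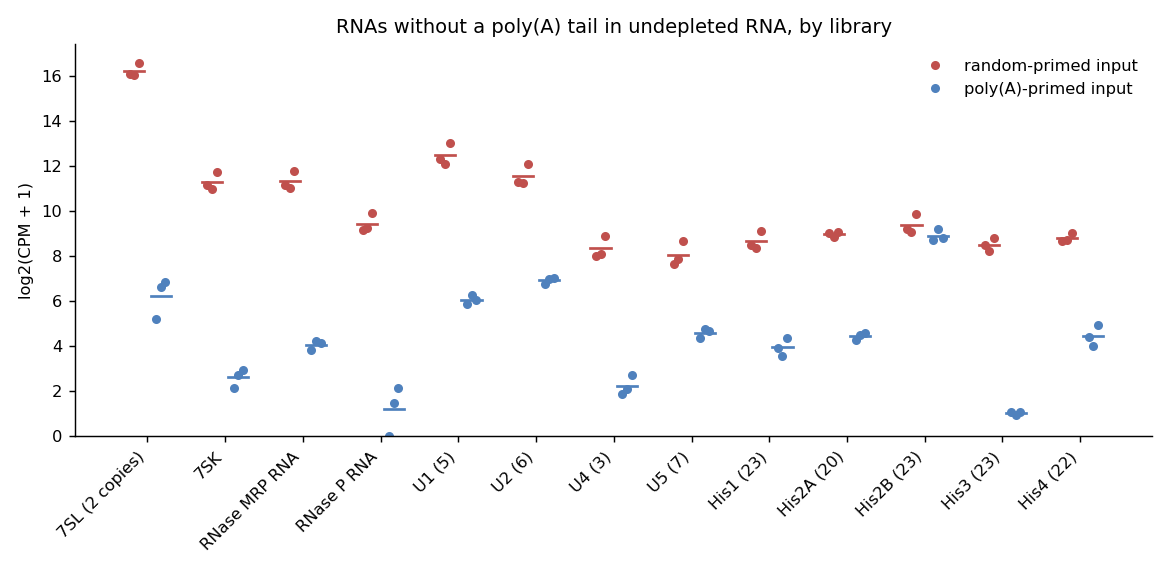
Level as log2(CPM + 1) of RNAs without a poly(A) tail in each of the 3 random-primed (red, left) and 3 poly(A)-primed (blue, right) input libraries, with bars at the mean of these values. Near-identical gene copies were summed (number of copies in brackets), and only for His2B do the groups come close, with 692 ± 215 against 488 ± 95.1 CPM.

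Of the 13 genes on the list of abundant noncoding RNAs, 10 were tested, and all 10 were higher in random-primed libraries. The list had a median log2 fold change of 6.281, against -0.16 over all genes tested. Its long noncoding RNAs showed smaller differences than the short RNAs above. The dosage compensation RNAs roX1 and roX2, which coat the male X chromosome, had log2 fold changes of 2.20 ± 0.19 and 2.56 ± 0.28 (SE, adjusted p = 8.78e-08 and 9.86e-07). The neuronal RNA noe and the bithorax-complex RNA bxd had 1.42 ± 0.22 and 1.53 ± 0.21 (adjusted p = 4.89e-05 and 1.31e-05). For bxd the poly(A)-primed estimates of 106, 125 and 84.7 stood against 1, 1 and 0 unique reads over exons. Hsromega, the heat shock RNA that seeds nuclear omega speckles, had 1834, 1666 and 1815 counts in the random-primed and 249, 255 and 267 in the poly(A)-primed libraries (log2 fold change 5.19 ± 0.26, adjusted p = 6.01e-10). Its longest annotated transcript has 21216 bases. Under a fit that offsets random-primed counts by transcript length, its log2 fold change was 1.83.

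All 16 tested spliceosomal snRNAs (of 30 in the table) were higher in random-primed libraries, with log2 fold changes from 2.98 to 9.14 and a median of 5.54. Of these, 8 passed the filter in both groups and 8 in random-primed libraries alone. U1, which recognises the 5′ splice site, summed over its 5 gene copies to 3573, 3342 and 4349 counts in the random-primed libraries, against 203, 337 and 175 in the poly(A)-primed libraries. U2, which pairs with the branch point, summed over 6 copies to 1732, 1869 and 2266 against 376, 563 and 343 counts. In CPM the random-primed level was 89.7 times the poly(A)-primed one for U1 and 25.6 times for U2. U4, which keeps U6 inactive until the spliceosome is activated, had a ratio of 88.4 over 3 copies, and U5, which holds the exons for ligation, a ratio of 12.01 over 7 copies. No copy of U6, the snRNA at the catalytic centre and a polymerase III transcript, reached the count minimum. The 3 copies of U6 together had 11.5, 4.05 and 3.05 counts in random-primed libraries and 7.05, 9.53 and 11.1 in poly(A)-primed libraries, or 16.6, 5.33 and 5.98 against 2.02, 2.17 and 4.19 CPM. The CPM did not overlap, with a ratio of means of 3.33, but rested on about as few as 3 counts in a library.

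The snRNAs of the minor spliceosome, which removes a rare class of introns, were also recovered. U11 had 170, 171 and 208 counts in random-primed and 11, 10 and 6 in poly(A)-primed libraries (log2 fold change 6.79 ± 0.30, adjusted p = 1.82e-10), and U12 had 69, 51 and 88 against 17, 12 and 13 (4.75 ± 0.36, adjusted p = 8.04e-08). Among major snRNAs, the smallest difference was that of snRNA:U2:38ABa, with 93, 57 and 62 against 56, 45 and 41 counts (2.98 ± 0.25, adjusted p = 6.58e-08). snRNA:U5:23D had 16, 22 and 27 counts in the random-primed libraries and 0 in every poly(A)-primed library. It was at least 117-fold higher, taking 3 counts over the group as the floor. U5 copies share sequence, so that the bound for snRNA:U5:23D depends on how reads were placed among them. It holds for the estimated counts of this copy alone. Over all 7 copies U5 had a ratio of 12.01, with 24, 60 and 27 unique reads in the poly(A)-primed libraries. The counts of snRNA copies in poly(A)-primed libraries depend on the counting: over unique reads U1 had 3, 13 and 8 and U2 13, 20 and 4, well under the estimates above. Reads shared between copies are not counted as unique, so these values are no check of the U1 and U2 sums. For 1 snRNA, snRNA:U2:34ABa, the call was lost when the RNA sample entered the fit as a block (adjusted p = 0.0742, against 0.0233 without it).

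The box H/ACA snoRNAs named as pseudouridylation guides numbered 109 in the table. Of these genes 53 were tested, and all 53 were higher in random-primed libraries. Of these 52 passed the filter in random-primed libraries alone, so that their direction was largely fixed by the filter. Their median log2 fold change was 9.0 as fitted and 7.45 with the 40 members of 3 counts or fewer on the poly(A)-primed side set at the bound that 3 counts allow. The most abundant, snoRNA:Psi18S-176, had 380, 356 and 560 counts in random-primed and 1, 0 and 2 in poly(A)-primed libraries, a ratio of 2311 (exact 95% interval from counting error alone 789 to 11219). snoRNA:Psi28S-291, which lies within the span of the ribosomal protein gene RpL3 on 3R, had 371, 375 and 462 against 2, 1 and 2 counts (log2 fold change 10.22 ± 0.39, adjusted p = 1.26e-10). snoRNA:Psi18S-1377a, within RpS7 on the same strand, had 82, 88 and 112 counts against 0 in each poly(A)-primed library and was at least 502-fold higher. The H/ACA member with the smallest difference, snoRNA:Psi28S-2876, had 75, 56 and 75 against 49, 76 and 41 counts (2.78 ± 0.24, adjusted p = 8.53e-08), so that its raw counts overlapped and the groups separated only in CPM.

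Of the other snoRNAs and small Cajal body RNAs, 18 of 92 were tested, and 17 were higher and 1 lower, with 15 having passed the filter in random-primed libraries alone. The U3 snoRNA, which is needed to process the 18S rRNA precursor, has 3 copies in the table, and snoRNA:U3:54Ab, which has the same fitted values as snoRNA:U3:54Aa, had 457, 472 and 601 counts in random-primed and 154, 168 and 194 in poly(A)-primed libraries (log2 fold change 3.99 ± 0.32, adjusted p = 6.78e-07). Its count over unique reads in the poly(A)-primed libraries was 3, 3 and 0, which leaves out reads shared between copies and so is no check of the estimate. snoRNA:Or-aca5 and snoRNA:Or-CD2, both inside the host gene Uhg4, had 187, 161 and 252 and 168, 159 and 224 counts in the random-primed libraries against estimates of 0 in every poly(A)-primed library, and were at least 1070-fold and 984-fold higher. For snoRNA:Or-CD2 the unique-read count in the poly(A)-primed libraries was 4, 18 and 6, which is above that floor, so that its bound holds for the estimated counts alone. snoRNA:Or-aca4 had 238, 214 and 279 against 0, 1 and 0 counts, and snoRNA:Psi28S-2566 had 221, 184 and 256 against 1, 0 and 1.

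Smaller RNAs were scarcely seen by either method. The 103 box C/D snoRNAs named as ribose methylation guides are shorter than the H/ACA class, and none reached the minimum. Together they had 20.9, 11.8 and 17.2 counts in random-primed libraries and 38.5, 44.4 and 30.4 in poly(A)-primed libraries. U3 and snoRNA:Or-CD2, given above, were not on this list. As shares of non-rRNA counts these were 0.00325% ± 0.00111 in random-primed and 0.000862% ± 7.49e-05 in poly(A)-primed libraries (SD, n = 3 each). The 261 microRNA genes together had 5.38, 12.6 and 13.9 counts in random-primed against 11.2, 10.5 and 2.07 in poly(A)-primed libraries. As shares they held 0.000967, 0.00211 and 0.00326% of random-primed against 0.000259, 0.000184 and 6.26e-05% of poly(A)-primed counts, which did not overlap, though from 2.07 to 13.9 counts a library (p = 0.1 by exact permutation for each of these small RNA sums and for U6). Of 297 nuclear tRNA genes only tRNA:Tyr-GTA-1-9 was tested, with 48, 61 and 53 counts in random-primed and 0, 1 and 0 in poly(A)-primed libraries (a ratio of 867 in CPM, exact 95% interval from counting error alone 153 to 34434). Intronic sequence held 72.9, 75.4 and 74.3% of the nuclear tRNA counts in the random-primed and 12.4, 13.3 and 11.1% in the poly(A)-primed libraries. All nuclear tRNA genes together had 68.5, 83.5 and 72.6 random-primed counts, most of them from tRNA:Tyr-GTA-1-9. The random-primed share thus describes mainly that gene.

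Replication-dependent histone mRNAs were higher in random-primed libraries for H1, H2A, H3 and H4, though for H2A a single copy was tested. Of 111 gene copies 53 were tested, and 37 were higher, among them 3 copies of His2B, with a median log2 fold change of 4.38, whereas the 16 that were not called were all copies of His2B. Of the 53, 38 passed the filter in random-primed libraries alone, and none of the 9 that passed in both groups was called. With a minimum of 50 counts 10 copies were left, with a median of 0.044. The repeats are nearly identical and the estimator splits their reads, so that sums are the safer measure. His3 summed over 23 copies to 248, 230 and 228 counts in random-primed libraries, against 4, 4 and 3 in poly(A)-primed libraries, a ratio of 346 in CPM. His1, the linker histone, gave 418 ± 121 CPM against 14.9 ± 4.51, His2A 510 ± 41.8 against 20.97 ± 2.28 and His4 451 ± 66.0 against 21.99 ± 7.64 (random-primed against poly(A)-primed, SD, n = 3 each). These correspond to ratios of 28.0, 24.3 and 20.5. His2B had 415, 410 and 479 counts in random-primed and 1477, 2620 and 1172 in poly(A)-primed libraries, a ratio of 1.42 in CPM with overlapping groups. Uniquely mapped reads gave only 3, 4 and 6 counts for His2B in the poly(A)-primed libraries. They were as scarce for the other histones, at 2, 0 and 0 for His1 and 0 throughout for His2A, His3 and His4. Reads shared between copies are not counted as unique, so these low values are no check of the summed estimates. The poly(A)-primed levels given here thus rest on the estimator alone. One copy, His2A:CG33808, took all of the random-primed H2A counts, 365, 352 and 277, and 0 in each poly(A)-primed library, whereas the poly(A)-primed H2A counts were placed on other copies.

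The replacement histones, which are made outside S phase from polyadenylated mRNAs, did not share this difference. Of 5 tested, 2 were lower in random-primed libraries and 3 were not called, with a median log2 fold change of -0.76 that turned to 0.55 under spike-in scaling. Among all genes tested, 32.7% were lower. His3.3B, an H3.3 gene, had 413, 396 and 372 counts in random-primed libraries and 1537, 1916 and 1567 in poly(A)-primed libraries, or 615 ± 105 against 491 ± 89.2 CPM (log2 fold change 0.32 ± 0.18, adjusted p = 0.131, and 0.00417 when blocked by RNA sample). His2Av, the fly H2A.Z, had 57, 61 and 40 against 396, 415 and 287 counts (-0.39 ± 0.17, adjusted p = 0.0557, and 0.0156 when blocked). His3.3A, the other H3.3 gene, had 39, 36 and 33 against 741, 1148 and 586 counts (-2.06 ± 0.19, adjusted p = 1.35e-07). The H3.3 genes encode the same protein from mRNAs of unequal length, 2114 bases for His3.3B and 926 for His3.3A.

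**Figure D3:**
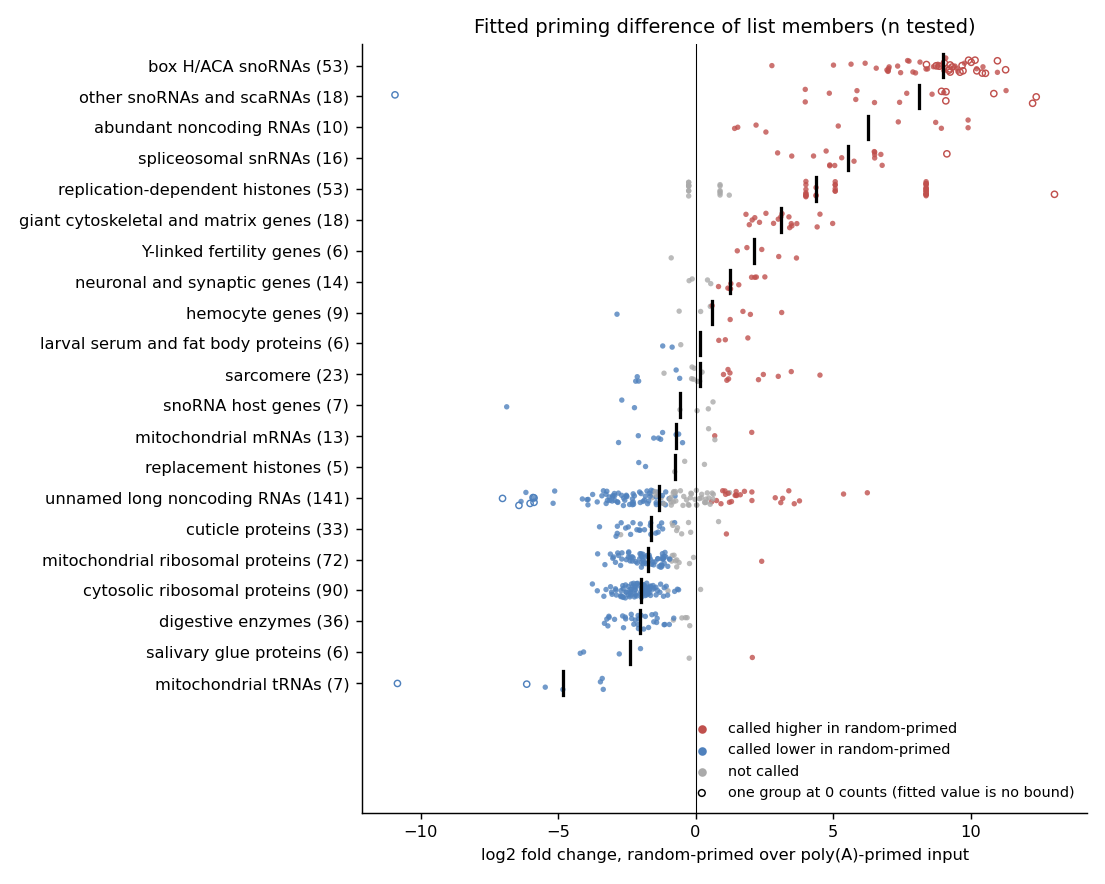
Fitted log2 fold change, random-primed over poly(A)-primed input, of each tested member of 21 gene lists (points, jittered) with the list median (black bar). Red points were called higher and blue points lower in random-primed libraries at adjusted p under 0.05, and open circles mark genes at 0 counts in all libraries of a group, whose fitted value is no bound. Medians of the snRNA, snoRNA and replication-dependent histone lists run from 4.38 (histones) to 9.0 (box H/ACA snoRNAs), and that of mitochondrial tRNAs is -4.82. Of these lists, 38 of 53 histones, 8 of 16 snRNAs, 52 of 53 H/ACA and 15 of 18 other snoRNAs passed the filter in random-primed libraries alone. All 7 mitochondrial tRNAs passed in poly(A)-primed libraries alone. These medians are thus descriptions and no support for a direction. With a minimum of 50 counts the histone median was 0.044.

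Among protein-coding genes, the priming difference followed transcript length. Over 8794 tested protein-coding genes the log2 fold change and the length of the longest annotated transcript had a Spearman rho of 0.79, and a slope of 1.10 on log2 length (genes are not independent replicates, so no p is given). In the shortest of 10 length bins (162 to 719 bases) the median log2 fold change was -2.23, with 34 genes higher and 715 lower in random-primed libraries. In the longest bin (5354 to 71382 bases) it was 1.84, with 809 genes higher and 7 lower. The median crossed 0 between the bins with median lengths of 2067 and 2545 bases. The 3 RNA samples gave -2.04, -2.13 and -2.01 for the shortest and 1.84, 1.81 and 1.72 for the longest bin. With an offset for length the SD of the log2 fold changes over these genes fell to 1.23, against 1.70 without it. The rho was then 0.18. That offset left 1666 genes higher and 1622 lower in random-primed libraries.

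**Figure D4:**
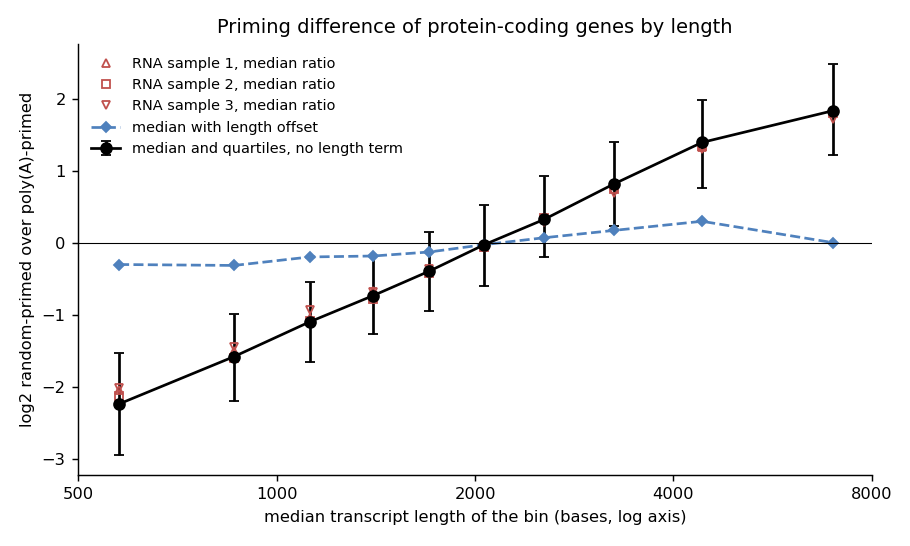
Median log2 ratio of random-primed over poly(A)-primed input against the median transcript length (bases, log axis) of 10 bins of 879 or 880 protein-coding genes. Black points with bars give the fitted median and quartiles, red symbols the median ratio in each of the 3 RNA samples, and blue diamonds the fitted median with a length offset, which stays between -0.31 and 0.30.

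The lists of long mRNAs lay accordingly. All 18 genes for giant cytoskeletal and matrix proteins were higher in random-primed libraries, with a median log2 fold change of 3.12 and a median length of 14316.5 bases. sls, which encodes the titin-like sarcomere protein, had 3108, 3222 and 2249 counts in the random-primed libraries and 667, 999 and 396 in the poly(A)-primed libraries, so that its raw counts were higher despite the smaller total (log2 fold change 4.52 ± 0.21, adjusted p = 2.11e-10). Dhc64C, the heavy chain of cytoplasmic dynein, had 261, 300 and 129 against 45, 43 and 25 counts (4.99 ± 0.23, adjusted p = 2.11e-10). The smallest of these differences was that of trol, the basement membrane proteoglycan perlecan, with 674, 779 and 441 against 901, 1279 and 665 counts (1.83 ± 0.16, adjusted p = 9.79e-08). With the length offset the median of the list was 0.39, and sls (-0.23), trol (-0.94) and 5 lower calls stood against 8 higher calls.

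Most tested members of 2 cell-type lists of long genes were also higher in random-primed libraries. Of 14 neuronal and synaptic genes 10 were higher, with a median of 1.26 that turned to -0.54 with the length offset. With spliced counts only, 5 of 12 were higher and 1 lower, with a median of 0.80. brp, the active zone scaffold Bruchpilot, had 19, 26 and 15 against 17, 28 and 11 counts (log2 fold change 2.52 ± 0.30, adjusted p = 2.74e-06), whereas Syt1, the calcium sensor of synaptic vesicles, had 76, 68 and 50 against 405, 466 and 264 (-0.12 ± 0.17, adjusted p = 0.549). Of 6 tested Y-linked fertility genes 5 were higher. kl-5, a dynein heavy chain of the sperm tail, had 23, 24 and 24 counts in random-primed and 8, 11 and 10 in poly(A)-primed libraries (3.67 ± 0.34, adjusted p = 1.46e-07). Intronic sequence held 96.0% ± 0.604 of random-primed and 94.9% ± 1.30 of poly(A)-primed counts of the Y-linked list (SD, n = 3 each). No gene of that list passed the filter on spliced counts, so that a relation to spliced transcript length was not tested for it. In a count over exons kl-3, another sperm dynein, had 0, 2 and 0 poly(A)-primed reads, against estimates of 101, 79 and 65.

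Lists of short mRNAs were lower in random-primed libraries. Of 90 tested cytosolic ribosomal protein genes 88 were lower and 2 were not called, with a median log2 fold change of -1.98. Together they held 5.67, 5.64 and 6.25% of non-rRNA counts in random-primed libraries and 16.3, 17.2 and 16.98% in poly(A)-primed libraries. RpL23 had 429, 464 and 376 counts in random-primed and 28838, 44926 and 20846 in poly(A)-primed libraries (-3.75 ± 0.20, adjusted p = 6.73e-10). RpL22, at the other end, had 303, 350 and 239 against 1230, 1748 and 1188 counts (0.18 ± 0.16, adjusted p = 0.325), but only 87, 110 and 92 unique reads over exons in the poly(A)-primed libraries. Mitochondrial ribosomal proteins gave 62 lower and 1 higher of 72 tested (median -1.72), and digestive enzymes 31 lower of 36, the other 5 not being called (median -2.02). Of 33 tested cuticle proteins 23 were lower and 1 was higher, led by Lcp3, a larval cuticle protein, with 2654, 2867 and 1638 against 155284, 172576 and 99233 counts (-3.49 ± 0.20, adjusted p = 1.40e-09). None of these 4 medians turned under another scaling or with the length offset, with which they lay between -0.78 and -0.29, but fewer genes were called. With the length offset, lower calls numbered 60 for cytosolic and 9 for mitochondrial ribosomal proteins, 21 for digestive enzymes and 8 for cuticle proteins (which had 4 higher), and under spike-in scaling 51, 13, 16 and 8. Of the 72 mitochondrial ribosomal proteins 70 passed the filter in poly(A)-primed libraries alone, as did 19 of the 33 cuticle proteins.

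The salivary glue genes, whose products fix the pupa to its support, were divided. Sgs7 and Sgs8, with transcripts of 321 and 359 bases, had log2 fold changes of -4.07 ± 0.27 and -4.19 ± 0.25 (adjusted p = 4.37e-09 and 1.64e-09). Sgs7 had 2589, 2333 and 2611 counts in random-primed libraries, against 222193, 225878 and 224043 in poly(A)-primed libraries. These counts hardly varied between RNA samples although the total of the poly(A)-primed libraries did. Sgs1, a mucin-like glue protein with a transcript of 3950 bases, had 666, 634 and 471 against 758, 956 and 563 counts (2.06 ± 0.16, adjusted p = 2.35e-08). Sgs4 had 1134, 1188 and 798 against 6506, 7714 and 5164 counts (-0.23 ± 0.16, adjusted p = 0.210). As a whole the 6 genes held 1.67, 1.59 and 1.72% of random-primed and 8.89, 7.97 and 10.8% of poly(A)-primed counts.

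The serum proteins of the fat body, transcripts of intermediate length, showed no common direction, with 3 of 6 genes higher, 2 lower and a median of 0.15. Fbp1, the receptor for storage hexamers, had 10274, 10108 and 7055 counts in random-primed libraries and 14589, 5722 and 15106 in poly(A)-primed libraries (log2 fold change 1.90 ± 0.49, adjusted p = 0.0111, and 0.0914 when blocked by RNA sample). Its random-primed CPM varied little, with an SD of 767, whereas its poly(A)-primed CPM, 4187, 1305 and 5721, was low in RNA sample 2. Lsp1beta, a storage hexamer subunit, had 6010, 7634 and 3438 against 47150, 86702 and 33162 counts (-0.85 ± 0.22, adjusted p = 0.00301), a difference that turned to 0.51 under spike-in scaling. Sarcomere genes were mixed too (10 higher and 5 lower of 23), as were hemocyte genes (5 higher and 1 lower of 9). Over all genes tested 30.8% were higher and 32.7% lower, so the counts of these small lists are descriptions only. Hml, the clotting protein hemolectin with an 11756-base transcript, had 141, 162 and 48 against 72, 98 and 40 counts (3.13 ± 0.28, adjusted p = 2.45e-07).

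Mitochondrial RNAs, which are cut from long precursors and carry short tails, did not move together. Of the 13 mRNAs, 9 were lower and 2 higher in random-primed libraries, and their median of -0.71 turned to 0.59 under spike-in scaling and to 0.63 with the length offset. The list held 1.82, 1.61 and 2.22% of random-primed and 1.94, 1.68 and 2.38% of poly(A)-primed counts, close to each other in every RNA sample. mt:CoII had 709, 701 and 699 counts in random-primed libraries and 25013, 30889 and 23243 in poly(A)-primed libraries (log2 fold change -2.80 ± 0.20, adjusted p = 1.33e-08). Its neighbour mt:CoI, which like it encodes a cytochrome c oxidase subunit, had 3892, 3731 and 3614 against 12128, 13025 and 11599 counts (0.70 ± 0.20, adjusted p = 0.00648). mt:ND3, a subunit of complex I with a coding stretch of 354 bases, had 85, 64 and 71 against 119, 71 and 89 counts (2.04 ± 0.28, adjusted p = 2.23e-05), so that a short transcript was higher in random-primed libraries.

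The 7 tested mitochondrial tRNAs were lower in random-primed libraries. All 7 passed the filter in poly(A)-primed libraries alone and had 3 counts or fewer in the random-primed libraries together, so that this direction was set by the filter. mt:tRNA:Ser-GCT had 0 counts in each random-primed library and 330, 519 and 309 in the poly(A)-primed libraries, and was at least 72.2-fold lower in random-primed libraries. Uniquely mapped reads gave 337, 532 and 321 for it in the poly(A)-primed libraries, close to the estimates. The median of the list was -4.82 as fitted and -2.90 with members of 3 counts or fewer at their bound. With the length offset it was 0.10, and 1 of the 7 was still called lower.

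Of 141 tested long noncoding RNAs without a name, 73 were lower and 25 higher in random-primed libraries, with a median of -1.34. Spike-in scaling turned the balance, with 26 lower and 43 higher and a median of -0.021, and the length offset gave 31 lower and 27 higher with a median of -0.14. Of the 141, 105 passed the filter in poly(A)-primed libraries alone. lncRNA:CR34335 (X:3545750-3546110, BDGP6, 1 exon of 361 bases) alone had 350, 385 and 414 counts in random-primed libraries and 118453, 122240 and 121003 in poly(A)-primed libraries (log2 fold change -5.89 ± 0.29, adjusted p = 3.09e-10). Unique reads gave 112975, 117299 and 114764 in the poly(A)-primed libraries, so that both counting methods found this RNA abundant. It lies inside the span of DIP-alpha, a cell surface receptor of neurons on the same strand. DIP-alpha itself had 9, 12 and 3 counts against 2222, 2213 and 2286 (-5.78 ± 0.30, adjusted p = 7.62e-10), but only 3, 5 and 5 unique reads over exons in the poly(A)-primed libraries. CG7606, a protein-coding gene singled out after its values were seen, had 207, 173 and 196 against 47510, 54543 and 48499 counts (-5.62 ± 0.26, adjusted p = 2.11e-10), with 53234, 61713 and 54371 unique reads in the poly(A)-primed libraries.

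Several of the genes with the lowest ratios overlap other genes, and their poly(A)-primed counts depended on the counting. snoRNA:Or-CD15 had 0 counts in the random-primed and 285, 694 and 291 in the poly(A)-primed libraries, and its host Uhg7 had 1, 0.5 and 0.5 against 181, 346 and 179. Both lie within the span of RpL23A on the same strand (3L:1666288-1668654, BDGP6), and unique-read counting gave 0 for each in all 3 poly(A)-primed libraries. lncRNA:SMRG, which lies within Tis11, had 0 counts against 160, 135 and 148, and Scgdelta, a sarcoglycan, 0, 1 and 0 against 162, 304 and 188, and both also had 0 unique reads. The spans of snoRNA:Or-CD15, Uhg7 and lncRNA:SMRG are wholly shared with another gene on the same strand. A read there may fit either gene, so that 0 unique reads are no check of those estimates. CR43186, CR43276 and snmRNA:CR43701 kept their poly(A)-primed counts, with 235, 375 and 166 unique reads against estimates of 248, 410 and 175 for CR43186. Over 4478 genes with at least 50 counts in all poly(A)-primed libraries, 93.8% had a unique-read count within 2-fold of the estimate. That share was 94.1% among genes at least 4-fold lower and 85.9% among genes at least 4-fold higher in random-primed libraries.

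The 7 snoRNA host genes had a median log2 fold change of -0.57, with 3 lower and none higher, and this median turned to 0.74 under spike-in scaling, 0.10 with total counts and 1.43 with the length offset. All 7 passed the filter in poly(A)-primed libraries alone. Intronic sequence took more of the random-primed counts. Over all genes it held 8.49, 8.07 and 8.79% of non-rRNA counts in the random-primed libraries, against 2.15, 2.18 and 2.15% in the poly(A)-primed libraries (p = 0.1 by exact permutation, two-sided, again the lowest value possible). Of 1272 genes with at least 50 counts in all 6 libraries, 822 had a larger intronic share in random-primed and 282 in poly(A)-primed libraries. The snoRNA host genes, which carry snoRNAs in their introns, had 36.1% ± 2.73 intronic counts in random-primed against 5.88% ± 1.46 in poly(A)-primed libraries (SD, n = 3 each). The random-primed share rested on only 28.3, 37.5 and 33.0 counts a library over the whole list. Sarcomere genes had 21.1% ± 6.99 against 5.17% ± 1.29. In spi, an EGF receptor ligand, 66.7% of 316 random-primed counts were intronic, against 5.52% of 706 poly(A)-primed counts. The reverse was also seen. In SERCA, the calcium pump of the endoplasmic reticulum, 1.498% of 862 random-primed and 89.1% of 1782 poly(A)-primed counts were intronic, and in sqd, an RNA-binding protein, 10.6% of 1113 and 76.5% of 6586. These genes were picked after their values were seen, as those with extreme differences.

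Fewer genes were detected in random-primed than in poly(A)-primed input at the deposited depth. With at least 10 counts in all 3 libraries, 4620 genes (26.1%) were detected in random-primed and 8882 (50.3%) in poly(A)-primed libraries, with 230 in random-primed alone and 4492 in poly(A)-primed alone. The 230 included 67 snoRNA, 8 snRNA and 38 replication-dependent histone genes. When every library was thinned to 428022 non-rRNA counts the order turned, with 4276 genes in random-primed and 2790 in poly(A)-primed libraries.

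Comparing the priming difference in undepleted with that in depleted RNA asks whether the pattern was there before any RNA was lost. The fitted log2 fold changes of the 9112 genes had a Pearson r of 0.93 between undepleted and depleted RNA, across genes that share the fit. In edgeR's test of the interaction over 12 libraries, the log2 fold change was higher in undepleted than in depleted RNA for 15 genes (0.165%) and lower for 18 (0.198%), against 154 and 532 when blocked by RNA sample and 9 and 0 under spike-in scaling. In simulated data this test recovered only 26% of 2-fold changes, so that a gene not called is not shown to be unchanged. Of the 15, 9 were protein-coding genes and 5 were snRNAs, whereas the 18 were all protein-coding. The 5 snRNAs amounted to 3 measurements, since snRNA:U1:21D, snRNA:U1:95Ca and snRNA:U1:95Cb had the same estimated counts. In this fit over 12 libraries, medians in undepleted and depleted RNA were 5.63 and 4.09 for snRNAs, 4.39 and 3.49 for replication-dependent histones, and -1.99 and -1.65 for cytosolic ribosomal proteins. The genes of this fit were filtered on undepleted libraries alone. Of the histones 38 of 53, and of the snRNAs 8 of 16, had passed only in random-primed input. That selection favours a larger difference in undepleted RNA, so these medians are descriptions only. Of the 90 ribosomal protein genes, 1 was called in the interaction, RpLP1 (-3.34 in undepleted and -1.94 in depleted RNA, adjusted p = 0.0281), and 41 when blocked, all with a lower log2 fold change in undepleted RNA.

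The clearest cases were snRNA:U5:63BC, Muc96D and Sgs1. snRNA:U5:63BC had 121, 147 and 168 counts in random-primed and 52.9, 108 and 54.6 in poly(A)-primed libraries of undepleted RNA, a log2 fold change of 3.49, against -1.13 in depleted RNA (difference 4.62 ± 0.47, SE, adjusted p = 0.00036). The mucin gene Muc96D had 583, 676 and 386 against 805, 1027 and 528 counts in undepleted RNA, a log2 fold change of 1.89, and -1.82 in depleted RNA (3.72 ± 0.27, adjusted p = 1.73e-06). Sgs1 had a log2 fold change of 2.06 in undepleted RNA and -0.74 in depleted RNA (2.80 ± 0.25, adjusted p = 2.23e-05). In depleted RNA its counts were 293, 330 and 325 in random-primed and 124, 136 and 109 in poly(A)-primed libraries. For snRNA:U5:63BC they were 73.4, 112 and 122 in random-primed and 54.8, 51.1 and 51.7 in poly(A)-primed libraries. Under TMM scaling the fitted order of the priming methods was thus opposite before and after depletion for these 3 genes. The sign in depleted RNA may depend on the scaling, and another scaling of these depleted values was not tested.

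**Figure D5:**
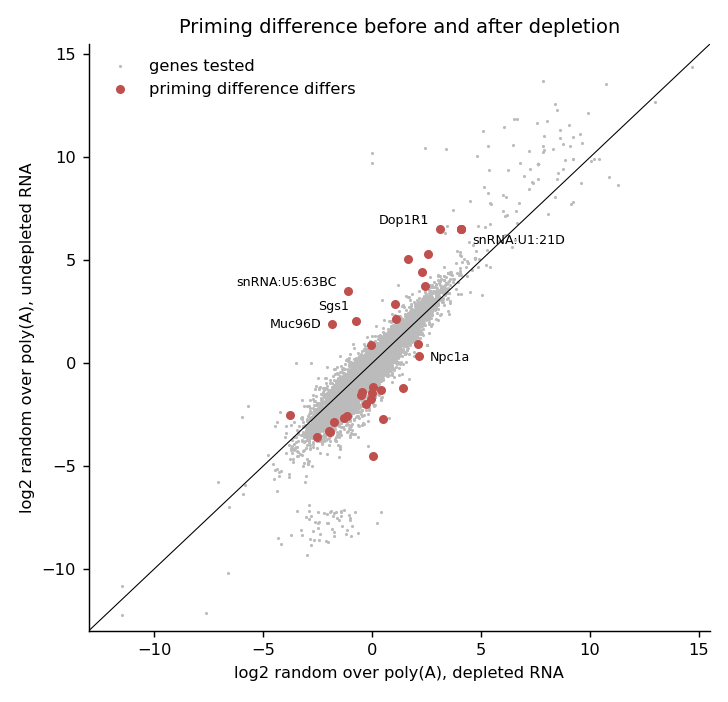
Fitted log2 fold change, random-primed over poly(A)-primed, of 9112 genes in undepleted RNA (vertical axis) against depleted RNA (horizontal axis), with the line of equality. Red points are the 33 genes whose priming difference differed between undepleted and depleted RNA at adjusted p under 0.05, and grey points far from 0 include genes at 0 counts in a group, whose fitted values are no bounds.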

How the data were processed

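Total RNA from larvae was sequenced from a single end (85 cycles). Per the methods of the study, the authors trimmed the reads with cutadapt or BBDuk, and the deposited estimated counts come from kallisto in stranded mode against coding, noncoding, spike-in and intronic sequences (Ensembl release 99), summed per gene. The deposited counts of uniquely mapped reads (STAR, HTSeq) cover poly(A)-primed libraries and served only as a check. A table holding the authors' DESeq2 comparison of depleted with input libraries was not used.

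Groups came from the labels. Genes of rRNA and spike-ins were left out before scaling, and genes with at least 10 counts in all 3 libraries of either group were kept. Estimated counts were rounded and tested with edgeR 4.0.16 (limma 3.58.1, R 4.3.3; TMM, robust quasi-likelihood, Benjamini-Hochberg at 0.05), without a block. The interaction used 12 libraries. Tables and plots used Python 3.11.15, pandas 2.3.3, numpy 2.4.6, scipy 1.17.1 and matplotlib 3.10.9. The fits were tested on simulated data with 1 set spread between libraries. The priming test recovered 54% of 2-fold and 93% of 4-fold changes. The interaction test recovered 26% of 2-fold and 87% of 4-fold changes, so that most 2-fold differences between undepleted and depleted RNA would be missed. Lengths and positions came from Ensembl release 115, longest transcript per gene, on the same BDGP6 assembly. Intervals and floors (3 counts over a group) cover counting error only, since reads carried no molecular identifiers.

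Both library types were made from the same RNA samples, so replicate numbers pair the libraries. Deviations from the group means correlated at 0.196, 0.363 and 0.536 for equal numbers over 4214 genes. For unequal numbers the correlations ran from -0.442 to 0.188. The highest of these, random-primed 2 with poly(A)-primed 1, lay close to the 0.196 of RNA sample 1. Named were the 10 genes with the largest and smallest called changes whose groups did not overlap and that had at least 50 counts, for each list the most abundant member and the members with the largest and smallest change, and every tested abundant noncoding RNA. lncRNA:CR34335, CG7606, DIP-alpha, His3.3B, His2Av, U11, U12, Sgs4, mt:CoII, mt:CoI, kl-3, snRNA:U5:63BC, Muc96D and the genes named for intronic shares were chosen after their values were seen. Members and lists were chosen with earlier results of these data known. Alternatives were other scalings, count filters, a length offset, spliced counts, DESeq2 1.42.0, the block and leaving out each library.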

Additional observations from a re-analysis of the deposited data

Results flagged for a closer look

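Each of these genes had a priming difference that was not the same in undepleted and depleted RNA by edgeR's test of the interaction. The log2 fold change was higher in undepleted RNA by 4.62 for snRNA:U5:63BC, by 3.72 for Muc96D, by 2.80 for Sgs1 and by 2.42 for snRNA:U1:21D. The U1 value was the same for 3 copies with equal estimated counts. U5 and U1 copies share sequence, and Muc96D lies within the span of Fur1, so that their counts depend on how reads were assigned, and the part of this in the differences was not tested.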

How the results depend on the processing

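Calls of 2803 higher and 2977 lower genes stood against 1638 and 1702 with at least 50 counts, 1666 and 1622 with the length offset, 4998 and 691 under spike-in scaling, and 3961 and 1611 with total counts. For calls of at least 4-fold, the higher and lower counts were 488 and 477 with at least 50 counts, 313 and 231 with the length offset, 317 and 241 with the replicate block and length offset, 2806 and 203 under spike-in scaling, and 1734 and 472 with total counts. The replicate block alone gave 2951 and 3223. Leaving out 1 library gave 2580 to 2828 higher and 2469 to 3037 lower genes. Interaction calls were 154 higher and 532 lower with the replicate block and 9 and 0 under spike-in scaling (276 and 173 at an unadjusted p under 0.05), and 10 to 15 higher and 4 to 11 lower without 1 library. Without 7SL, an alternative chosen after seeing the data, the difference in ncRNA share was -2.99 points, against 6.83 with it. With spliced counts only, the difference in share was -0.0163 points for tRNA and 0.332 for unannotated genes. Detection gave 1365 random-primed and 4478 poly(A)-primed genes at 50 counts, and 2790 poly(A)-primed genes after thinning.

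These medians and genes changed direction, and the cause was not tested. Under spike-in scaling values were 0.55 for replacement histones, 0.74 for snoRNA host genes, 0.59 for mitochondrial mRNAs, 0.38 for mRpL37, 0.51 for Lsp1beta and 0.15 for Fbp2. With total counts snoRNA host genes gave 0.099. With the length offset, and then with the replicate block and length offset, values were 1.43 and 1.45 for snoRNA host genes, 0.10 and 0.099 for mitochondrial tRNAs, 0.63 and 0.68 for mitochondrial mRNAs, -0.11 and -0.098 for sarcomere genes, -0.54 and -0.55 for neuronal genes, 1.44 and 1.45 for mt:tRNA:Lys-CTT, 0.070 and 0.056 for RpL41, -0.23 and -0.23 for sls, -0.94 and -0.94 for trol, and -0.33 and -0.31 for kl-3. Larval serum and sarcomere medians, near 0 throughout, were -0.088 and -0.090 with at least 1 count and -0.010 and -0.013 with edgeR's default filter, and leaving out 1 library the sarcomere median ran from -0.0038 (without random-primed replicate 2) to 0.32 (without random-primed replicate 3). Random-primed libraries held the fewest non-rRNA counts, which limits genes of low level.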
